A study of Mus musculus with 6 samples.

Results

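Killer cell lectin-like receptors were described in regulatory T cells (Treg) from mouse liver and spleen. Members were the genes of the deposited table whose single symbol began with Klr, a letter from a to k and a digit, pseudogenes left out. There were 28 members among 38854 genes, each with 1 row of its own. RNA of 6 samples was measured on 6 Affymetrix arrays, 3 of liver Treg (labelled 2, 3 and 7) and 3 of spleen Treg (labelled 4, 5 and 6). All mice were Foxp3-GFP reporters, in which green fluorescent protein marks cells that transcribe the Treg factor Foxp3. Every mouse was given interleukin-2 bound to its antibody for 3 days and then left for 3 days, a treatment that expands Treg, so no array shows untreated cells. The labels give neither age, sex nor strain background, mention both fluorescence-activated and magnetic isolation, and do not say whether arrays came from separate animals. Spread among arrays of a tissue, on which the p-values rest, may thus be technical.

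Killer cell lectin-like receptors are C-type lectin proteins of the cell surface, best known from natural killer (NK) cells and also made by subsets of T cells. Inhibitory members recruit phosphatases when they meet MHC class I or related ligands. Many activating members signal through adaptors such as Tyrobp (DAP12) or Hcst (DAP10). The Klra group (Ly49) reads classical MHC class I in mice, the Klrc proteins pair with Klrd1 to read the MHC-like molecule H2-T23, Klrk1 reads stress-induced ligands, and several Klrb proteins read Clec2 lectins. The 28 members were 13 of Klra, 5 of Klrb, 3 of Klrc, Klrd1, Klrk1, Klre1, Klri1, Klri2, Klrg1 and Klrg2. By symbol or synonym 27 matched a RefSeq gene, all on chromosome 6, and Klra33 stands there under the name Klra4.

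Many of these genes are recent copies of each other, which bears on how far an array can tell them apart. RefSeq promoters (GRCm38.p6, 250 bases before to 50 after a start, minus strand for all shown here) are printed for the Klrc group, which holds the one member that passed the test, and for a pair of Klra genes. They lie at chr6:129678924-129679223 (Klrc1), chr6:129660507-129660806 (Klrc2, which has a further start), chr6:129643239-129643538 (Klrc3), chr6:130337577-130337876 (Klra3) and chr6:130193063-130193362 (Klra9). Capitals mark the Runx letters TGTGGT or their reverse complement ACCACA.
Klrc1: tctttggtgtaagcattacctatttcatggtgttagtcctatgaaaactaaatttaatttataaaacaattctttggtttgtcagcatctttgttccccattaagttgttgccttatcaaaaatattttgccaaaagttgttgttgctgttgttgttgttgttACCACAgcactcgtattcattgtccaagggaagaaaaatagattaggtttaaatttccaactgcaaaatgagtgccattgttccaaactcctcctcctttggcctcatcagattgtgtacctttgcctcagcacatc
Klrc2: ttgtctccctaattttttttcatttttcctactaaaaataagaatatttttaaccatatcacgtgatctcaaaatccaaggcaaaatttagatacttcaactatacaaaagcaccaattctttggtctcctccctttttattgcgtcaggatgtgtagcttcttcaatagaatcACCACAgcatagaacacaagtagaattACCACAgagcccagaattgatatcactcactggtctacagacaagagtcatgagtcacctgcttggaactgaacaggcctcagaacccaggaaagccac
Klrc3: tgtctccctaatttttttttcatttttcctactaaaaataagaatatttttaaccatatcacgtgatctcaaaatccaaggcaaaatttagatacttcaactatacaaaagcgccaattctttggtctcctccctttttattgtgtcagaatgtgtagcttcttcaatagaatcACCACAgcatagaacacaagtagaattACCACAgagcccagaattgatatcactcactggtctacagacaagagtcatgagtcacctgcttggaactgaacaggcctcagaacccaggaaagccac
Klra3: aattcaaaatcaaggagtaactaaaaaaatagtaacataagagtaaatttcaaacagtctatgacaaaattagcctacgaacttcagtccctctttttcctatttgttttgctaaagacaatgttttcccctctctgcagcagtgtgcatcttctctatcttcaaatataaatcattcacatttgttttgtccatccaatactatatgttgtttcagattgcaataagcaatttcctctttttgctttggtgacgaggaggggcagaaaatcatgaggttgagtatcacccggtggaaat
Klra9: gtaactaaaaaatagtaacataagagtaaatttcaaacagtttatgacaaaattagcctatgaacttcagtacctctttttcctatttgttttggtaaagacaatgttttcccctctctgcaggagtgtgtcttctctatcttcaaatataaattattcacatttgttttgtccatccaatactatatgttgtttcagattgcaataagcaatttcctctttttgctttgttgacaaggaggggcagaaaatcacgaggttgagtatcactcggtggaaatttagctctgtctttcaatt
Of 299 aligned bases 296 were identical between the Klrc2 and Klrc3 promoters, or 99.0%, and of 281 between Klra3 and Klra9 271 were, or 96.4%. These were the pairs of highest identity among the members compared. Klrb1a and Klrb1c reached 90.8%. Of members with more than 1 start, only the start of lowest coordinate was compared. Klra6 and Klra7 had 51.8% at that start, but the further start of Klra7 was not compared, so their distance is not settled. The promoter of Klrc1 differed from those of Klrc2 and Klrc3, with 58.5% and 58.1% identity. Promoter identity does not show how alike the transcripts are, nor whether probes tell them apart. The Runx letters stood in 8 of 27 promoters of 22 members (29.6%), against 16.8% of 32851 mouse promoters of this length. The T-box letters AGGTGT or their reverse complement stood in 1 of the 27 (3.70%), that of Klrb1, against 13.7% of all promoters. Promoters of copies and of nearby starts share sequence and are not independent, and a match is a string of letters rather than a bound site. Probes of one copy may read another, so signals of the 13 Klra members, of Klrb1a and Klrb1c and of Klrc1, Klrc2 and Klrc3 are uncertain. This was not tested, since probe and transcript sequences were not compared. Klra16, Klra20, Klra23, Klrd1, Klrg1 and Klri2 had no promoter to compare.

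Signals of most receptors lay higher in the liver samples than in the spleen samples, Klrg1 and Klrg2 apart, although 1 member passed the test. Values are log2 signals. The difference was positive in 27 of 28 members, against 42.3% of all genes, and its median was 0.53, against -0.02 over all genes. Klrc1 rose, the only member to pass limma at an adjusted p of 0.05, and no member fell. That is 1 of 28 members, where 0.0103% of all genes passed upwards and 0.0206% in either direction. In 14 members all 3 liver arrays lay above all 3 spleen arrays and in none below, against 3.11% and 3.09% of all genes. At an unadjusted p under 0.05, 18 members were higher in liver and none lower, where 2.09% and 1.68% of all genes were. Members with a difference of at least 0.5 numbered 15, against 0.602% of all genes. Of the 22 genes on the array with a difference of at least 1 on the log2 scale, 4 were members, and 12 members were among the 100 genes with the largest positive differences. In such bulk samples, more cells of a type and more RNA per cell cannot be told apart. For a single gene, the smallest two-sided p of an exact permutation test with 3 arrays per tissue is 0.1. Without spleen array 5 no gene passed, members included, and 21 members had liver above spleen with no overlap, against 14.9% of all genes. Without liver array 7, 7 members passed, among 33 of all 38854 genes, and 24 had liver above spleen with no overlap, against 13.7%. Klrg2 then had liver below, an order whose share of all genes was not counted in this setting.

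**Figure D1:**
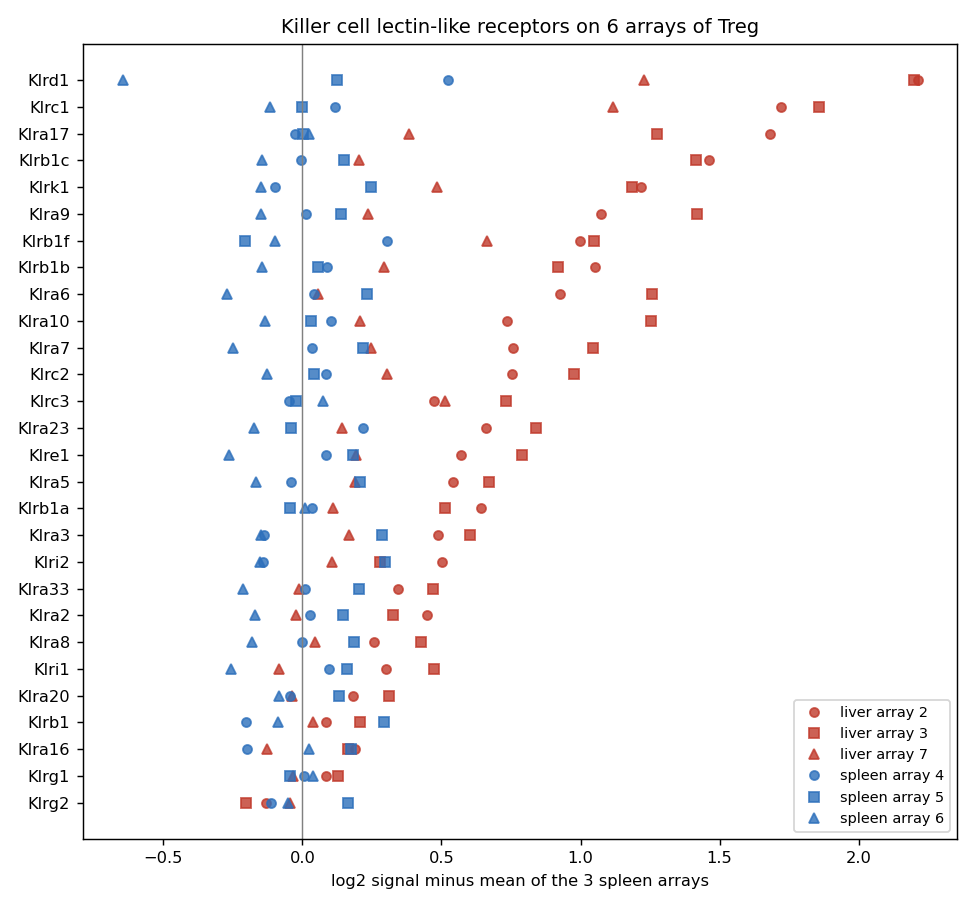
Log2 signal of each of the 28 members minus its mean over the 3 spleen arrays (x axis), with 1 point per array, liver in red and spleen in blue, ordered by the mean difference. Liver arrays 2 and 3 lie to the right of all spleen arrays in 24 members and liver array 7 in 14.

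Liver arrays 2 and 3 and liver array 7 did not carry these transcripts to the same extent. Liver arrays 2 and 3 both lay above all spleen arrays in 24 of 28 members, against 13.7% of all genes, and liver array 7 did so in 14, against 8.82%. Array 7 was the lowest liver array in 26 members, and arrays 2 and 3 both lay above array 7 in 52.2% of all genes. The median member stood 0.64 above its spleen mean on liver arrays 2 and 3 and 0.18 on liver array 7. Liver arrays 2 and 3 differed from each other by a median of 0.13. Among the spleen arrays, array 6 was the lowest in 20 members, against 40.9% of all genes, and the median range over the 3 spleen arrays was 0.37, against 0.31 over all genes. Array medians over all rows ran from 5.68 to 5.90, with spleen array 5 the highest.

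Klrd1 and Klrc1 had the largest differences among the 28 members, while Klrc2 and Klrc3 ranked 12 and 13. Klrd1 (CD94) is the invariant chain that carries each Klrc protein to the surface as a heterodimer. Klrd1 measured 7.90, 7.89 and 6.92 on liver arrays 2, 3 and 7 and 6.21, 5.82 and 5.04 on spleen arrays 4, 5 and 6. Every liver array lay above every spleen array, liver array 7 by the smallest margin, and the spleen arrays were themselves spread, with array 6 lowest. The difference was 1.88, or 3.68-fold, and missed the threshold (SE 0.29, 95% confidence interval 1.25 to 2.51, limma adjusted p = 0.0695). Klrd1 passed in 6 of 14 alternatives, among them without liver array 2, liver array 7 or spleen array 4 (1.71, 2.21 and 2.14, limma adjusted p = 0.0215, 0.017 and 0.0337).

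Klrc1 encodes NKG2A, the inhibitory partner of Klrd1. Klrc1 measured 7.13, 7.26 and 6.52 in liver and 5.52, 5.40 and 5.29 in spleen, where the arrays lay within a narrow band. Its group means were 6.97 ± 0.39 and 5.41 ± 0.12 (SD, n = 3 each), so it rose 2.96-fold (limma log2 difference 1.56, SE 0.17, adjusted p = 0.0305). The call was lost after array medians were subtracted, after quantile normalization, after cyclic loess and without spleen array 5 (adjusted p = 0.232, 0.159, 0.183 and 0.522), while the difference stayed between 1.42 and 1.79 in all 14 alternatives. Klrc2, the activating relative that also pairs with Klrd1, measured 5.40, 5.62 and 4.95 in liver and 4.73, 4.68 and 4.52 in spleen. Its 3 liver arrays lay above the spleen arrays, with a difference of 0.68 (95% confidence interval 0.34 to 1.02, limma adjusted p = 0.361). Klrc3, whose promoter is nearly the same as that of Klrc2, measured 5.22, 5.48 and 5.26 in liver and 4.70, 4.72 and 4.82 in spleen, a difference of 0.57 (0.32 to 0.82). Klrc3 was the member in which liver array 7 did not fall below both other liver arrays while all liver arrays exceeded spleen.

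Klrk1 encodes NKG2D, an activating receptor of NK cells and activated CD8 T cells that signals through Hcst and, in mice, also through Tyrobp. It measured 6.18, 6.14 and 5.44 in liver and 4.86, 5.20 and 4.81 in spleen, with no overlap and a difference of 0.96 (SE 0.19, limma adjusted p = 0.206). Klrk1 passed without liver array 7, at 1.20 (adjusted p = 0.017). Klre1, whose product pairs with Klri1 or Klri2, measured 4.74, 4.96 and 4.36 in liver and 4.25, 4.35 and 3.90 in spleen, a difference of 0.52 (0.16 to 0.87). In Klri1 and Klri2 the groups overlapped, with differences of 0.23 (-0.12 to 0.57) and 0.30 (-0.03 to 0.62).

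In the Klrb group, 4 of 5 members had liver above spleen with no overlap (3.11% of all genes), none passed limma over all genes (4 higher at an unadjusted p under 0.05, against 2.09% of all genes), and the median difference was 0.75. Klrb1c, the activating receptor that marks NK cells in several mouse strains, measured 7.29, 7.24 and 6.03 in liver and 5.82, 5.98 and 5.68 in spleen. Liver array 7 lay just above the highest spleen array, and arrays 2 and 3 stood more than a log2 unit higher. The difference was 1.03 (95% confidence interval 0.46 to 1.60, limma adjusted p = 0.388), and Klrb1c passed without liver array 7, at 1.44 (adjusted p = 0.00405). Klrb1f measured 7.12, 7.17 and 6.78 in liver and 6.42, 5.91 and 6.02 in spleen, and here liver array 7 stayed close to the other liver arrays. Its difference was 0.90 (SE 0.15, limma adjusted p = 0.111). It passed without spleen array 4, at 1.06 (adjusted p = 0.0337). Klrb1b, an inhibitory receptor for Clec2d, measured 5.79, 5.65 and 5.03 in liver and 4.83, 4.79 and 4.59 in spleen, a difference of 0.75 (0.38 to 1.13). Klrb1b passed without liver array 7, at 0.99 (adjusted p = 0.0293). Klrb1a lay at 5.22, 5.09 and 4.69 in liver and 4.61, 4.53 and 4.59 in spleen. Klrb1 was the member of the group whose tissues overlapped, with a difference of 0.11 (-0.19 to 0.41).

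Among the 13 Klra (Ly49) members all differences were positive (42.3% of all genes), liver lay above spleen with no overlap in 4 (3.11% of all genes), none passed limma (8 higher at an unadjusted p under 0.05, against 2.09% of all genes), and the median difference was 0.47. Klra17 (Ly49Q), known from plasmacytoid dendritic cells and other myeloid cells, measured 5.98, 5.58 and 4.68 in liver and 4.27, 4.30 and 4.33 in spleen. The spleen arrays lay within a narrow band and the liver arrays were widely spread, with array 2 highest and array 7 lowest. The difference was 1.11 (95% confidence interval 0.59 to 1.64, limma adjusted p = 0.331), and Klra17 passed without liver array 7, at 1.48 (adjusted p = 0.0041). Klra9 (Ly49I), an inhibitory receptor of NK cells, measured 4.57, 4.91 and 3.73 in liver and 3.50, 3.63 and 3.34 in spleen, a difference of 0.91 (0.41 to 1.41). Klra9 too passed without liver array 7, at 1.25 (adjusted p = 0.0164). Klra10 (Ly49J) measured 4.55, 5.07 and 4.03 in liver and 3.92, 3.85 and 3.69 in spleen. Klra7 (Ly49G), another inhibitory receptor, measured 4.98, 5.27 and 4.47 in liver and 4.26, 4.45 and 3.98 in spleen. Neither gene's groups overlapped, but liver array 7 exceeded the highest spleen array only narrowly. Klra6 (Ly49F) measured 4.97, 5.30 and 4.10 in liver and 4.08, 4.28 and 3.77 in spleen, and Klra23 5.49, 5.67 and 4.97 and 5.05, 4.79 and 4.66. In both, liver array 7 fell within the spleen range and arrays 2 and 3 lay above it. The differences of Klra10, Klra7, Klra6 and Klra23 were 0.73, 0.68, 0.75 and 0.55.

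The other 7 Klra members overlapped between the tissues. Klra5 (Ly49E) differed by 0.47 (0.15 to 0.78) and Klra3 (Ly49C), an inhibitory receptor, by 0.42 (0.09 to 0.75). Both intervals lay above 0, and neither gene passed after adjustment over all genes (limma adjusted p = 0.679 and 0.9). Klra33, the activating Ly49D in RefSeq, differed by 0.27 (-0.06 to 0.59), and Klra8 (Ly49H), the activating receptor for a protein of mouse cytomegalovirus, by 0.24 (-0.05 to 0.54). Klra2 (Ly49B) was at 0.25, Klra20 at 0.15 and Klra16 at 0.07, with intervals that include 0. Klra16 turned to -0.02 without spleen array 4.

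**Figure D2:**
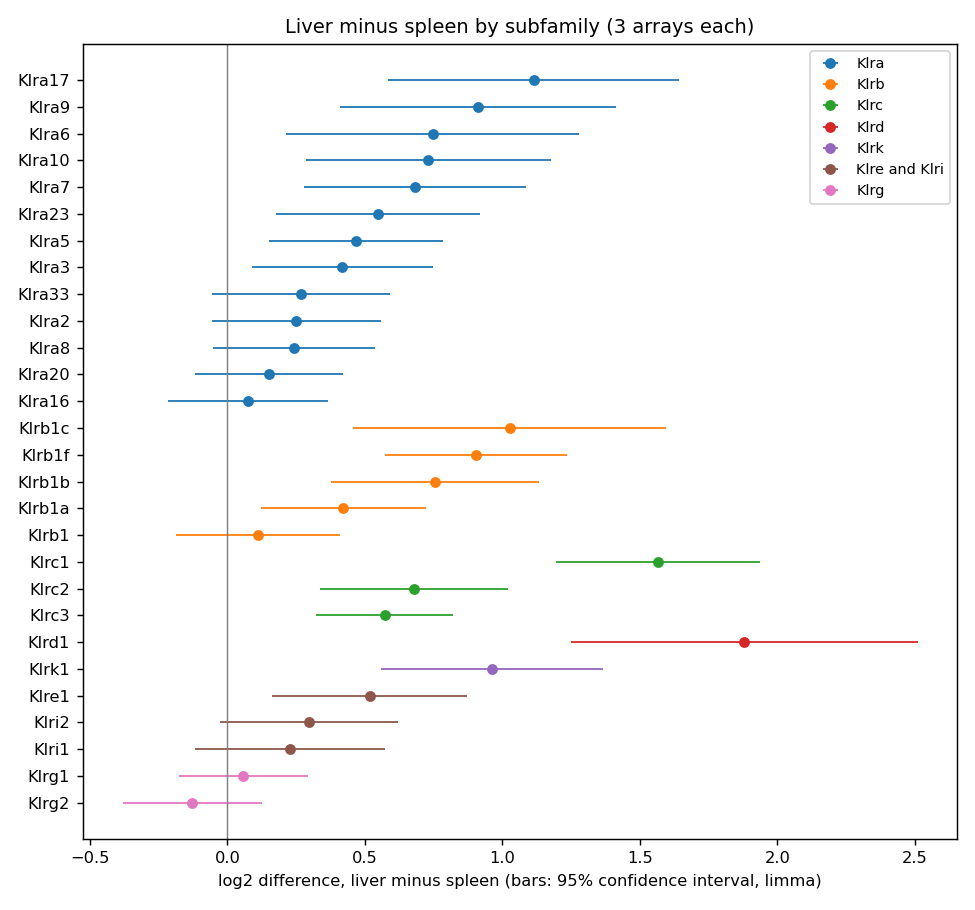
Log2 difference, liver minus spleen, of each member (x axis) with its 95% confidence interval from limma as bars, grouped and coloured by subfamily, 3 arrays per tissue. Klrd1 at 1.88 and Klrc1 at 1.56 lie farthest right, and the intervals of Klrg1 and Klrg2 include 0.

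Klrg1, an inhibitory receptor for cadherins found on terminally differentiated Treg and cytotoxic cells, measured 11.79, 11.84 and 11.68 in liver and 11.72, 11.67 and 11.75 in spleen, with overlapping groups and a difference of 0.06 (-0.18 to 0.29). Klrg2 was the only member with a negative difference, at -0.13 (-0.38 to 0.13), and stayed negative in all 14 alternatives. Klrg1 was also the only member whose mean exceeded the background limit of 7.21, the mean over arrays of the 95th percentile of 23 background control rows. Those rows spanned 1.66 to 8.45 and averaged 4.09 to 4.55 per array, so how far a given member stands above its own background is not settled. Above the array's background mean on all 6 arrays were 17 members. Klra33 and Klra20 were below it on all 6, and Klra6, Klra8, Klra9 and Klra10 were above it on liver arrays 2 and 3 only. Folds so near background are compressed by the processing.

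Grouped by known signal, 8 members taken as inhibitory (Klra3, Klra6, Klra7, Klra9, Klra17, Klrb1b, Klrc1 and Klrg1) had a median difference of 0.75. The 5 taken as activating (Klra8, Klra33, Klrb1c, Klrc2 and Klrk1) had a median of 0.68. A role was assigned to these members only, and the rest, Klra2, Klra5, Klrb1a and Klrb1f among them, were left out, so neither list is complete. The range was 0.06 to 1.56 in the first and 0.24 to 1.03 in the second. Differences between these groups, or between subfamilies, were not tested.

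The share of the liver excess that liver array 7 kept varied among the 15 members with a difference of at least 0.5. On the linear scale, array 7's excess over the spleen mean was a median of 0.226 of that of arrays 2 and 3. It was 0.813 for Klrc3, 0.558 for Klrb1f, 0.475 for Klrc1, 0.362 for Klrd1 and 0.303 for Klrk1. For Klra17 the share was 0.167, for Klra9 0.126, for Klrb1c 0.0874 and for Klra6 0.0252. The 3 Klrc genes, Klrd1 and Klrk1 thus kept 0.283 or more, and the 6 Klra genes of this set 0.205 or less. The Klrb genes of this set ran from 0.0874 to 0.558, across both ranges. Klra6, Klra9 and Klra10 lay below the background mean on liver array 7 and on every spleen array, so their shares compare near-background signals. With 1 array on one side these shares are a description without a test.

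**Figure D3:**
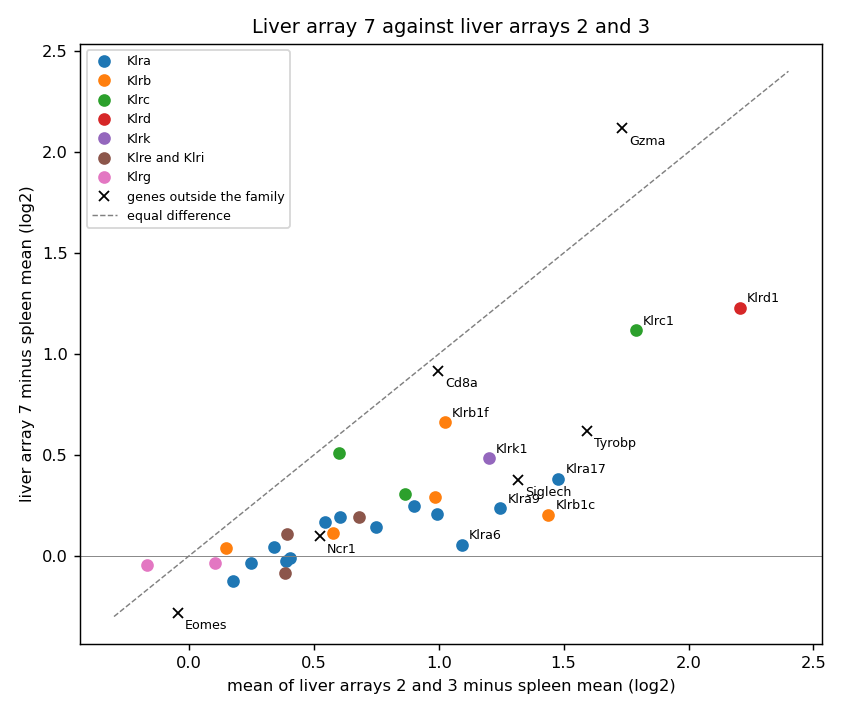
Log2 difference from the spleen mean on liver array 7 (y axis) against that on the mean of liver arrays 2 and 3 (x axis), 1 point per member coloured by subfamily, with crosses for 6 genes outside the family and a dashed line of equal difference. All members but Klrg2 lie below the line (27 of 28), with Klrd1 at a height of 1.23, Klrc1 at 1.12 and Klrb1c at 0.20.

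Marker genes of some other cell types also lay higher in the liver samples, although none passed limma. Of 12 NK and ILC1 cell genes 7 had an unadjusted p under 0.05, against 3.77% of all genes. In 6 all liver arrays lay above all spleen arrays, against 3.11%. The difference was positive in 9, against 42.3% of all genes, and negative in Txk, Eomes and Cma1 (-0.22, -0.12 and -0.03). The summed linear signal of the 12 was 3137 to 3700 in liver and 1732 to 2297 in spleen. Bright genes, Gzma and Tyrobp among them, weigh more in such a sum than dim ones. Tyrobp, an adaptor of activating receptors, measured 9.59, 9.63 and 8.64 in liver and 7.47, 8.17 and 8.42 in spleen. Gzma, a granzyme, measured 9.90, 9.90 and 10.28 and 9.04, 8.68 and 6.77, and so was highest on liver array 7, where the receptors were low among the liver arrays. Ncr1 and Eomes, which define NK cells, overlapped between the tissues, with differences of 0.38 and -0.12. All 6 dendritic cell genes had liver above spleen without overlap, against 3.11% of all genes, and all 6 had an unadjusted p under 0.05, against 3.77%. None passed limma, and their summed signal was 823 to 1274 in liver and 587 to 731 in spleen. Siglech, a marker of plasmacytoid dendritic cells, measured 7.12, 7.04 and 6.14 in liver and 5.68, 5.74 and 5.88 in spleen, the order of arrays seen in Klra17. Cd8a measured 7.71, 7.93 and 7.74 in liver and 7.25, 6.78 and 6.44 in spleen. Both CD8 genes summed to 681 to 709 and 402 to 630. Neither CD8 gene passed limma (1 at an unadjusted p under 0.05, against 3.77% of all genes). The part of these cells in the receptor differences was not tested.

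In the B cell list Ms4a1, at 0.38, and Cd79a, at 0.16, lay higher on every liver array, as did Alb, at 0.47, in the hepatocyte list. Differences between lists were not tested. The 4 B cell genes summed to 609 to 736 in liver and 537 to 624 in spleen, the 6 measured macrophage genes to 313 to 337 and 295 to 388, and the 3 hepatocyte genes to 148 to 161 and 130 to 158. Of 4 NKT and gamma delta T cell genes 2 were measured, and they summed to 223 to 236 and 200 to 266. None of these genes passed limma (3 at an unadjusted p under 0.05, against 3.77% of all genes). No marker gene in any list lay below the background mean on all 6 arrays. The Treg genes Foxp3, Il2ra, Ctla4, Ikzf2, Cd4 and Cd3e summed to 14968 to 16018 in liver and 14929 to 15992 in spleen. Foxp3 measured 9.52, 9.57 and 9.31 in liver and 9.50, 9.57 and 9.40 in spleen, with overlap, and none of these 6 genes passed limma (0 at an unadjusted p under 0.05).

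Most genes that work with these receptors had smaller differences. Of 17 adaptor and signalling genes none passed limma in either direction (2 at an unadjusted p under 0.05, against 3.77% of all genes). Their median difference was 0.04. Tyrobp at 1.27 and Fcer1g, another adaptor, at 0.78 lay higher on every liver array, and Cd247, the T cell receptor zeta chain, lay lower on every one, at -0.20. Hcst, the adaptor of Klrk1, measured 10.18, 10.32 and 10.08 in liver and 10.30, 10.35 and 10.11 in spleen, with overlap. Among ligands, 6 of 12 MHC and MHC-like genes were measured, none passed limma (0 at an unadjusted p under 0.05), and differences ran from -0.09 (H60b) to 0.24 (Ulbp1), both ligands of Klrk1. H2-T23, the ligand of the Klrd1 and Klrc1 pair, differed by 0.19 (-0.08 to 0.45). The cadherin ligands of Klrg1, Cdh1, Cdh2 and Cdh4, differed by 0.17, -0.04 and -0.08, and none passed limma (0 at an unadjusted p under 0.05).

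On chromosome 6 the members lie among other genes, most of which had smaller differences. The interval from Klrb1a to Klra2 in RefSeq held 23 members and 41 other genes that were measured. The median difference was 0.68 in the members and 0.02 in the other genes. Liver lay above spleen with no overlap in 14 of the 23 members and 4 of the 41 others, against 3.11% of all genes. Of 14 Clec2 ligands and other lectins of the interval none passed limma (2 at an unadjusted p under 0.05, against 3.77% of all genes). Their difference was positive in 9, against 42.3% of all genes, and negative in 5. Cd69, an activation marker, had all liver arrays below all spleen arrays, at -0.18 (3.09% of all genes had this order). In 2 lectins all liver arrays lay above all spleen arrays, against 3.11% of all genes. The 2 were Clec9a, a receptor of cross-presenting dendritic cells, and Clec2d, the ligand of Klrb1b. Clec9a measured 6.30, 6.37 and 5.51 in liver and 5.20, 5.10 and 5.04 in spleen, with liver array 7 again nearest to spleen. Clec2d measured 11.28, 11.32 and 11.11 in liver and 10.80, 10.80 and 10.99 in spleen. Gm156, which RefSeq now names Klrh1 and the rule did not take, differed by 0.24. The interval was chosen with the members' values known and is a description.

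**Figure D4:**
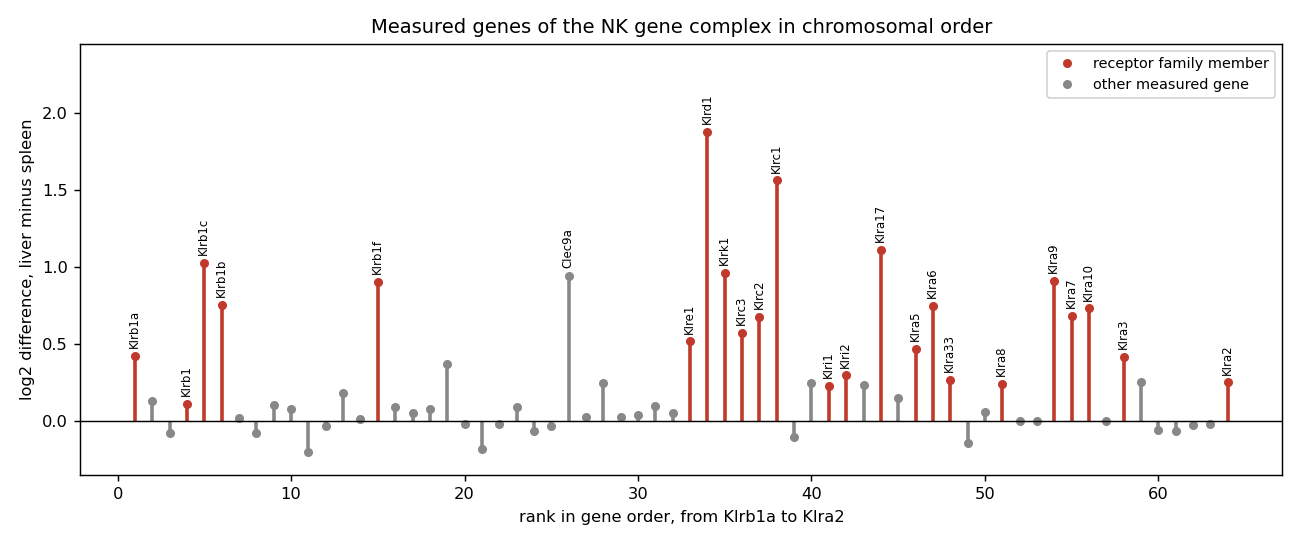
Log2 difference, liver minus spleen (y axis), of the 64 measured genes between Klrb1a and Klra2 by their rank in gene order (x axis), members in red and other genes in grey. Members stand at 0.11 to 1.88, and Clec9a at 0.94 is the highest of the other genes.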

How the data were processed

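Treg RNA of 3 liver and 3 spleen samples was hybridised to 1 array each, named Mouse Gene ST 2.0 in the labels and MTA-1_0 in the file header. Per the submitters' processing notes, the authors made the deposited log2 signals with RMA (Affymetrix Expression Console). The genome build is not given in the sources used here. The annotated and the value table were identical (largest difference 0).

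Of 72688 rows, 39514 had 1 gene symbol; 186 control rows were left out. The row with the highest mean was kept per symbol, which gave 38854 genes. Liver and spleen were compared with limma 3.58.1 in R 4.3.3 (lmFit, eBayes, two-sided, no covariate, Benjamini-Hochberg over all genes), tested on simulated data. Members and lists were chosen with earlier results of these data known. Values on all arrays are given for members past the test, past the background limit or with an absolute difference of at least 0.5, and for fixed partner and marker genes; other genes are examples. Alternatives were 3 rescalings, 2 filters on dim genes, averaging rows, 2 other priors and leaving out each array. The number of arrays limits precision. RefSeq names, gene order and promoters are of GRCm38.p6.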

Additional observations from a re-analysis of the deposited data

How the results depend on the processing

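The count of all genes that passed limma (8) was 0 after array medians were subtracted, after quantile normalization and after cyclic loess (unadjusted p under 0.05 in 1650, 2314 and 2347 genes), 18 without the lower 50% of genes by mean, 21 without genes of a mean under 5 and 23 with a mean-dependent prior. In the same order the count of members that passed (1) was 0, 0, 0, 2, 2 and 2, the added one being Klrd1 each time. With 1 array left out these counts ran from 0 to 33 for all genes and from 0 to 7 for members. Both lows came without spleen array 5 (2017 genes at an unadjusted p under 0.05) and both highs without liver array 7. The cause of the moved counts was not tested. Members with liver above spleen without overlap (14) were 16, 20 and 19 after the rescalings, against 4.25%, 6.35% and 6.09% of all genes. They were 4 of the 6 and 7 of the 11 members left by the filters (4.61% and 3.83% of the genes left), and 14 to 24 with 1 array left out (3.75% to 14.9% of all genes). The highest was 24, without liver array 7 (13.7% of all genes). The median difference of the members (0.53) was 0.966 in the 6 members above the lower 50%, and, with 1 array left out, 0.392 (without liver array 3) to 0.643. Of 353 values of single members under the alternatives 1 reversed, Klra16 at -0.0243 without spleen array 4 (up to 0.175 with another array left out). The liver and spleen arrays share no replicate number, and the labels do not say whether any came from the same animal. Pairing is thus unknown, and no paired analysis was run.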
